A study of Homo sapiens with 4 samples.

Results

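Interferon signalling genes and interferon-stimulated genes were examined in HCT-8 cells, an established line of human colorectal cancer, that had become resistant to 5-fluorouracil. The 48 genes are a list of names that was chosen with earlier results of these data known. They were matched by gene symbol to the 20323 gene rows of the count files, and each name had a row. They comprise 11 signalling genes (receptor subunits, kinases and transcription factors), 3 genes of the guanylate-binding protein (GBP) family and 34 classical targets of type I interferon. Where a symbol had several rows, as IFNAR2, IFITM1 and DDX58 had, the row with the highest mean count was used. Poly(A) RNA was sequenced from 2 libraries of cells transfected with a METTL14 overexpression plasmid and from 2 libraries of cells transfected with a negative control plasmid. Both groups were of the drug-resistant line and received 100 ug/mL of cycloheximide, which stops ribosomes from elongating proteins, so its effect on these genes cannot be seen within the data. The sources used here give neither the promoter of the plasmid nor whether the resistant line is 1 clone, and the labels name no treatment with interferon. METTL14 binds METTL3, and together they write N6-methyladenosine on mRNA.

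Interferons are secreted cytokines that cells release on sensing viral nucleic acid. Type I interferon binds a receptor made of IFNAR1 and IFNAR2, which activates the kinases JAK1 and TYK2. A complex that contains STAT2 and IRF9 then enters the nucleus and binds the interferon-stimulated response element in the promoters of target genes, many of which encode antiviral proteins. Interferon gamma uses IFNGR1 and IFNGR2 and acts through another element, the gamma-activated site, and GBP genes are well-known targets of this type of interferon. Many epithelial cell lines keep a low level of these transcripts without added interferon.

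With the METTL14 plasmid, classical targets were mostly lower, while STAT2, IRF9 and IFNGR2 were higher. GBP2, which passed the low-count filter through the overexpression libraries alone, was higher too. Of the 48 genes, 45 passed the filter on low counts and were tested. Among these, 10 were higher and 19 lower (quasi-likelihood test of edgeR, p-values adjusted by Benjamini-Hochberg over 12700 tested genes, threshold 0.05). The 64.4% of members called stand beside 55.1% of all tested genes, 27.0% being higher and 28.1% lower, so a call alone is common in this comparison. The groups of libraries did not overlap for 38 of the tested members, where the share among all tested genes was 79.8%. Among the 11 signalling genes 5 were higher and 1 lower, and the median log2 fold change was 0.27. Among the 32 tested classical targets 3 were higher and 18 lower (56.2% lower), with a median of -0.71, while the median over all tested genes was -0.01. These targets were listed with earlier results of these data known. A further list of 34 interferon-stimulated genes, 26 of them tested, lay nearer to all genes. It had 34.6% lower, 19.2% higher and a median of -0.25. At a change of at least 2-fold, 10 classical targets were lower and 1 higher, beside 8.80% and 10.2% of all tested genes. A fit without 1 library leaves a single library in that group, so its p-values rest on the spread of the other pair. The overexpression pair lies closer together than the control pair, as given below. A call gained or lost in such a fit thus says little by itself. The median log2 fold change in these fits ran from 0.19 to 0.35 over signalling genes and from -0.73 to -0.59 over classical targets.

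GBP1, XAF1 and IFI44L did not pass the filter. GBP2 passed it through the overexpression libraries alone and DHX58 through the control libraries alone, so these 2 could only be seen to differ in that direction. The counts above include them: GBP2 among the higher members, and DHX58 among the lower members and the classical targets lower by at least 2-fold. The smallest p of an exact permutation test of 2 against 2 libraries is 0.333, so each p-value rests on a spread shared over genes. In bulk RNA fewer cells that express a gene and less RNA per cell cannot be told apart.

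**Figure D1:**
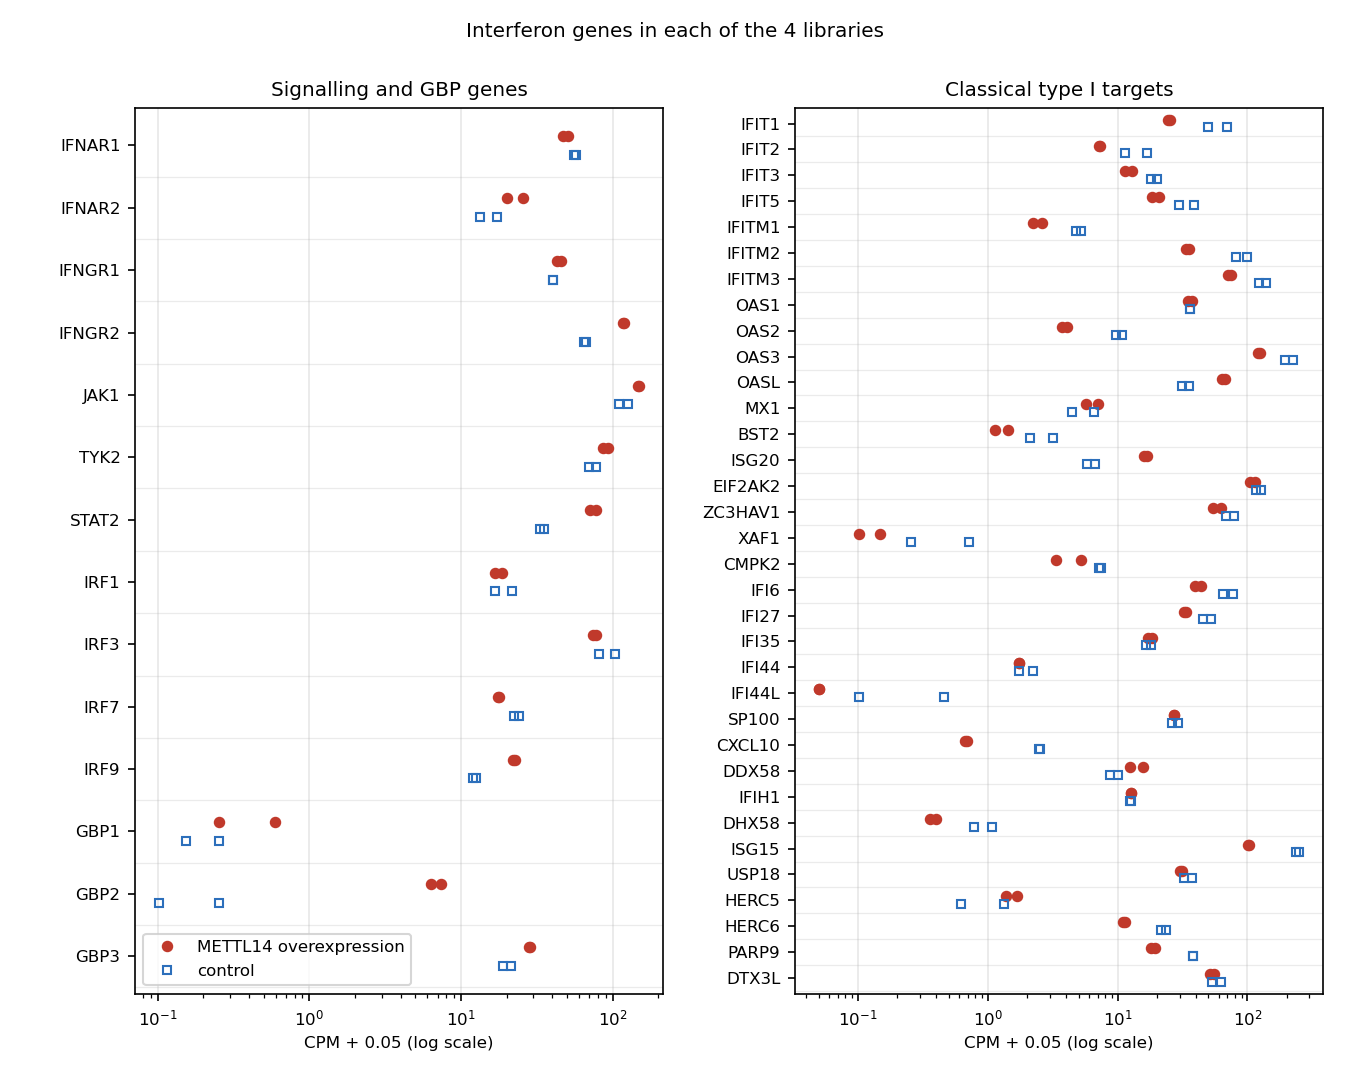
Level of each of the 48 genes in each library, in CPM (counts scaled to library size) plus 0.05 on a log axis; filled circles are the 2 METTL14 overexpression libraries and open squares the 2 control libraries. ISG15 lies near 100 CPM in the overexpression libraries against values above 230 in the controls, and GBP2 near 7 CPM against values of 0.205 and lower.

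Total counts were 19206661 and 19829158 in the overexpression libraries and 20161082 and 19247784 in the controls. The plasmid's own gene, METTL14, had 390.1 and 420.7 CPM in the overexpression libraries, against 24.6 and 30.7 CPM in the controls (log2 fold change 3.88, SE 0.141, edgeR adjusted p = 7.33e-05). Overexpression libraries lay closer to each other, with a chi-square of 3.32 for each degree of freedom, than the controls did, at 29.2. The share of mitochondrial transcripts was 9.85 and 10.2% with METTL14 and 5.99 and 6.26% in the controls. With those transcripts left out, an alternative added after seeing the data, 10 members were higher and 19 lower. The colorectal epithelial markers had a mean of at least 1 CPM for 10 of 10 genes with METTL14 and 9 of 10 in the controls. Their levels were not stable: 4 were higher and 2, the keratins KRT8 (-0.90) and KRT18 (-0.92), were lower. These 60% called stand beside 55.1% of all tested genes. Their summed level was 8317 and 8172 CPM with METTL14 against 16762 and 10724 CPM in the controls, most of it from these keratins, for which the controls differ widely. Of 7 fibroblast markers 3 reached 1 CPM with METTL14 and 4 in the controls, with COL1A1 (0.50) and PDGFRB (1.38) called higher, and of 5 endothelial markers 1 did with METTL14 and 0 in the controls. Of 12 leukocyte markers 3 reached that level with METTL14 and 2 in the controls. The summed level of the leukocyte markers was 70.5 and 70.2 CPM with METTL14 against 20.6 and 19.7 CPM in the controls, nearly all of it CD68, and CD68 (1.89) and CD14 (1.75) were called higher. The T cell and B cell markers CD3E, CD3D and MS4A1 had no count in any library, and PTPRC, the pan-leukocyte marker, had at most 1 count in a library. Of 5 markers of plasmacytoid dendritic cells, a leukocyte known for making much interferon, 3 had no count. TCF4 had 13 and 10 counts with METTL14 and 60 and 48 counts in the controls (-2.25, SE 0.383, edgeR adjusted p = 0.00226), moving with the lower targets, and IL3RA had 4 and 5 counts with METTL14 and none in the controls. The part of these marker differences in the results was not tested.

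The response element was searched for in promoter sequences of RefSeq (GRCh38.p14, 250 bases before to 50 bases after a start site), which matched 38 of the 48 genes. Searched on both strands were GAAA, any 2 bases and GAAA again for the core of the element, and TTC, any 3 bases and GAA for the gamma-activated site. The 6 sequences below all hold the response element and were chosen by hand, with genes of each direction among them. ISG15, IFIT1 and IFI6 were lower with METTL14, ISG20 and GBP3 were higher, and DTX3L, whose window overlaps that of PARP9, did not pass the test. Each runs 5′ to 3′ on the strand of its gene, with matches to the response element in capitals.
ISG15 (chr1:1013247-1013546, plus strand): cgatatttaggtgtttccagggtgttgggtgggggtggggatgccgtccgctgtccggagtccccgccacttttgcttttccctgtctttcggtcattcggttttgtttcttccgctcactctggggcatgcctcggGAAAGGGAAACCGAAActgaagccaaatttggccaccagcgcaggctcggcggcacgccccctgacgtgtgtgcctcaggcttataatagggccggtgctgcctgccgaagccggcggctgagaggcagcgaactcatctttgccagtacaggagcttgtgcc
IFIT1 (chr10:89392373-89392672, plus strand): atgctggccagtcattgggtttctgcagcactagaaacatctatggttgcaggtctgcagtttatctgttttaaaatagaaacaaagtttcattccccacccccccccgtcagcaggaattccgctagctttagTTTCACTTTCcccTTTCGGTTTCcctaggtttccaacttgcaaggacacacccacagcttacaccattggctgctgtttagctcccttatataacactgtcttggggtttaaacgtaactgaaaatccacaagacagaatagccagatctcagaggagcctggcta
IFI6 (chr1:27672143-27672442, minus strand): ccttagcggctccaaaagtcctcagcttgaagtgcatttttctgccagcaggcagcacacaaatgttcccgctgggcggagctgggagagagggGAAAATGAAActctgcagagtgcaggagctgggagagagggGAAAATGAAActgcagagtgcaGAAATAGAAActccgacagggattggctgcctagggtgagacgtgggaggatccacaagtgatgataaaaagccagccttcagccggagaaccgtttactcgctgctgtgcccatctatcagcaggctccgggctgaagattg
ISG20 (chr15:88638766-88639065, plus strand): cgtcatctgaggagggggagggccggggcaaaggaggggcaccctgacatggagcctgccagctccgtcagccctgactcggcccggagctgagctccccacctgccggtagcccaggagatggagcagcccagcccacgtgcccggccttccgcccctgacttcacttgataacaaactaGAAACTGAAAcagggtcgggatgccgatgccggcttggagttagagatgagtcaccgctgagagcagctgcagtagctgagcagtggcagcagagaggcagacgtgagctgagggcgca
GBP3 (chr1:89022817-89023116, minus strand): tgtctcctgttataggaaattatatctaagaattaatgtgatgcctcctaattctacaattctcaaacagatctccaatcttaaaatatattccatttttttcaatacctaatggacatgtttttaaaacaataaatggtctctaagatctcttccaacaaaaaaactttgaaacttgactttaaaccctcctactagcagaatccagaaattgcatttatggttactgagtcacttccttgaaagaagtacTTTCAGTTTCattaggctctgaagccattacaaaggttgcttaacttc
DTX3L (chr3:122564088-122564387, plus strand): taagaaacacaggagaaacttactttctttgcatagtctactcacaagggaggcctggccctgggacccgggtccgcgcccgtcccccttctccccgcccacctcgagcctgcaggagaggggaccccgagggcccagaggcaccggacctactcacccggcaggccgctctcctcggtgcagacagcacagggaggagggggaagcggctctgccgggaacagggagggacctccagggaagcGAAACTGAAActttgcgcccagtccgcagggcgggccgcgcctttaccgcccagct

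In ISG15 the 2 matches overlap and begin 113 and 107 bases before the start site, and in IFIT1 they begin 116 and 103 bases before it. IFI6 holds 3 matches, at 156, 115 and 93 bases before the start. The match of ISG20 begins 69 bases before the start, and that of GBP3 lies just after it. GBP3 also has a match to the gamma-activated site 15 bases before the start. Among the 28 classical targets with a promoter sequence, 20 had a match to the response element (71.4%), against 0 of 8 signalling genes and 2 of 2 GBP genes. Of all 27305 genes with a promoter in the table, 4.38% had one. Among classical targets the element was matched in 12 of 14 that were lower, in 6 of 10 that were not called and in 1 of 2 that were higher. Over all members it was matched in 12 of 14 lower (85.7%), 6 of 14 uncalled (42.9%) and 2 of 7 higher genes (28.6%). Genes with the match were thus found among the lower, the higher and the uncalled members. The gamma-activated site was matched in 10 of the 38 members (26.3%) and in 9.38% of all genes with a promoter, and some of its matches overlap one to the response element, as in IFI27, IFITM1, BST2 and MX1. A match is a run of letters and not a measured binding site.

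**Figure D2:**
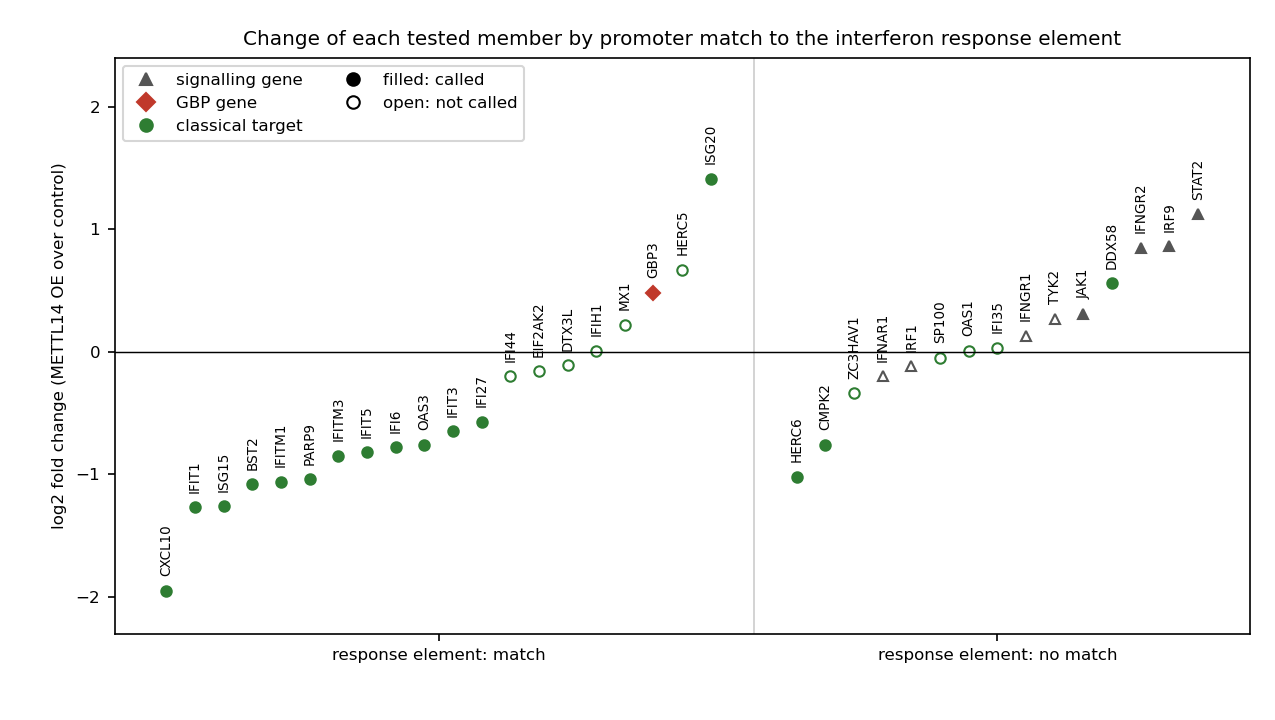
log2 fold change (METTL14 overexpression over control) of each tested member with a promoter sequence, with a match to the response element at left and without at right. Triangles are signalling genes, diamonds GBP genes and circles classical targets; filled symbols were called and open symbols were not. CXCL10 at -1.95 and ISG20 at 1.41 both have a match, and the signalling genes all lie at right.

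Transcripts of the interferon genes that were looked up were close to absent. Of 9 ligand genes none passed the filter, and IFNA1, IFNA2, IFNK and IFNG had no count in any library. IFNL1, a type III interferon of epithelia, had 2 and 1 counts in the overexpression libraries, against 10 and 12 counts in the controls. Both overexpression libraries lie below both controls, and the ratio of summed counts was 0.133 (95% exact interval 0.0255 to 0.443, counting error only). IFNB1 had 1 and 0 counts with METTL14 and 4 and 3 in the controls, a ratio of 0.139 with an interval of 0.00309 to 1.08 that includes no difference. IFNL2 and IFNL3, near-identical copies between which reads can be split, had 7 and 13 summed counts with METTL14 and 5 and 14 in the controls.

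Receptor subunits were higher or did not pass the test. IFNGR2, the signalling chain of the interferon gamma receptor, had 118.6 and 117.4 CPM in the overexpression libraries and 64.8 and 66.5 CPM in the controls. Both overexpression libraries lie far above both controls (log2 fold change 0.85, SE 0.0939, edgeR adjusted p = 0.000391). Some of its exon sequence overlaps TMEM50B on the opposite strand. IFNGR1, the ligand-binding chain, had 45.4 and 43.1 CPM with METTL14 and 40.4 and 40.3 CPM in the controls (0.13, SE 0.105, adjusted p = 0.316). The ratio of IFNGR2 to IFNGR1 counts within a library, which needs no scaling between libraries, was 2.61 and 2.72 with METTL14 and 1.60 and 1.65 in the controls.

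IFNAR2, a chain of the type I receptor, had 20 and 25.6 CPM with METTL14 and 13.2 and 17.3 CPM in the controls (0.58, SE 0.185, adjusted p = 0.0319). Its libraries do not overlap, but the call was lost without METTL14 overexpression replicate 2 (adjusted p = 0.241). IFNAR2 shares exon sequence with a readthrough row of the same symbol, which leaves its counts less certain. IFNAR1, the other chain, had 47.3 and 50.8 CPM with METTL14 and 57.0 and 55.4 CPM in the controls. That difference (-0.20, SE 0.104, adjusted p = 0.149) did not pass the test in all 4 libraries, and it was -0.22 without control replicate 2. The genes IFNAR2, IL10RB, IFNAR1 and IFNGR2 follow each other on chromosome 21 between 33229901 and 33479348 (GENCODE 29, GRCh38). The type III receptor, outside the 48 genes, had both of its chains higher: IFNLR1 at 0.66 (SE 0.106, adjusted p = 0.00172) and IL10RB at 0.55 (SE 0.116, adjusted p = 0.00593). IL10RB shares exon sequence with the readthrough row too.

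The receptor kinases moved little. JAK1 had 145.9 and 149.0 CPM with METTL14 and 126.7 and 110.7 CPM in the controls (0.31, SE 0.106, adjusted p = 0.0394). The call was lost without either overexpression library, at nearly the same log2 fold change (0.33 without replicate 1 and 0.30 without replicate 2). TYK2 had 92.6 and 85.6 CPM with METTL14 and 77.8 and 69.8 CPM in the controls (0.27, SE 0.106, adjusted p = 0.0616). Neither kinase overlaps between the groups, but for TYK2 the nearest libraries of the 2 groups lie no farther apart than the 2 controls do. TYK2 passed the edgeR test with library totals (adjusted p = 0.0231), with the 5 CPM filter (0.0384) and with replicate number in the model (0.0311). It was at 0.35 without control replicate 1 and 0.19 without control replicate 2.

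Transcription factors of the pathway went in different directions. STAT2 had 70.8 and 77.7 CPM with METTL14 and 33.1 and 35.1 CPM in the controls, 2.18-fold higher (log2 fold change 1.12, SE 0.109, adjusted p = 0.000252). IRF9, its DNA-binding partner, had 22.7 and 21.8 CPM with METTL14 and 12 and 12.5 CPM in the controls (0.86, SE 0.13, adjusted p = 0.00135). For these 2 the gap between the groups is many times the gap within them, and the calls of both held in each of the 15 alternatives. IRF9 shares 1838 of its 3794 exon bases with RNF31 on the same strand, which leaves its counts less certain. None of the alternatives addresses that overlap. IRF1 and IRF3 share some exon sequence with RAD50 and BCL2L12 on the opposite strand. IRF7, the factor that amplifies type I interferon production, had 17.8 and 17.6 CPM with METTL14 and 24.0 and 22.2 CPM in the controls. It was lower in both libraries (-0.38, SE 0.124, adjusted p = 0.0336), and the call was lost with DESeq2 (adjusted p = 0.111) and with library totals in place of normalization (0.0618). The call was also lost without either overexpression library, at nearly the same log2 fold change (-0.39 and -0.37). IRF3, which switches on interferon genes after nucleic acid sensing, had 77.1 and 73.7 CPM with METTL14 and 103.5 and 80.9 CPM in the controls (-0.29, SE 0.133, adjusted p = 0.101). The controls differ widely for IRF3, and its log2 fold change was -0.10 without control replicate 1 and -0.46 without control replicate 2. IRF1, a factor of the interferon gamma response, had 18.5 and 16.6 CPM with METTL14 and 21.5 and 16.6 CPM in the controls (-0.12, adjusted p = 0.559). Its direction turned without control replicate 1 (0.08), and it was at -0.30 without control replicate 2.

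Other IRF genes and genes of IRF2-binding proteins, none of them among the 48 genes, were mostly higher: of 7 tested genes 6 were higher (85.7%) and none was lower by edgeR. Over all tested genes 27.0% were higher and 28.1% lower. The uncalled gene was IRF8 (0.07). IRF2, which can oppose IRF1 at shared sites, had 49.2 and 44.0 CPM with METTL14 and 21.5 and 22.4 CPM in the controls (1.09, SE 0.118). IRF2BPL was at 1.32 (SE 0.109). Of 10 negative regulators 2 were higher and 2 lower, so 40% were called beside 55.1% of all tested genes. PIAS3 was at 1.02 (SE 0.107), and the phosphatases PTPN1 at -0.91 (SE 0.122) and PTPN2 at -0.64 (SE 0.112). PTPN6 was the other higher gene (0.39, SE 0.116), and SOCS1 and SOCS3, which inhibit the receptor kinases, did not pass the test (-0.03 and -0.58).

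**Figure D3:**
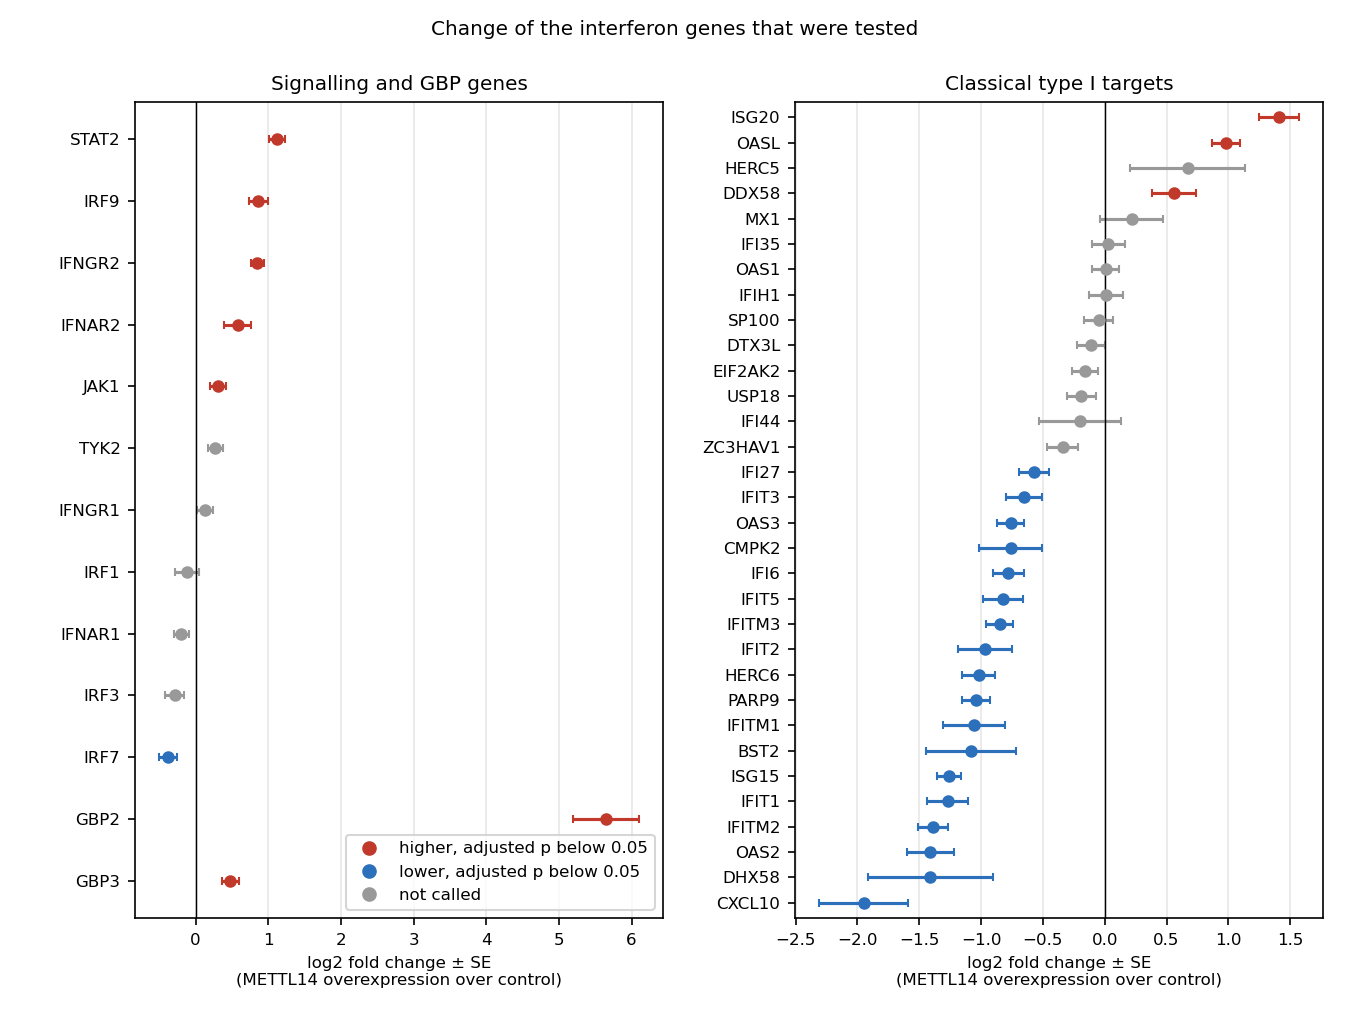
log2 fold change with its standard error for the 45 tested members, signalling and GBP genes at left and classical targets at right; the axis ranges of the 2 panels differ. Red marks genes that were higher, blue lower and grey not called, and GBP2 stands apart at 5.65 while the classical targets run between -1.95 and 1.41.

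The 3 GBP genes, GTPases that act on intracellular pathogens, lie side by side on the minus strand of chromosome 1 (GBP3 at 89006666 to 89022894, GBP1 at 89052319 to 89065360 and GBP2 at 89106132 to 89150456, GRCh38). GBP2 had 143 and 127 counts with METTL14 and 1 and 4 counts in the controls, or 7.35 and 6.27 CPM against 0.052 and 0.205 CPM. Both overexpression libraries lie far above both controls, and the gene was near silent in the controls. GBP2 passed the filter through the overexpression libraries alone, so it could only be called higher. The ratio of summed counts was 52.6 (95% exact interval 22.3 to 163.5, counting error only), and the log2 fold change was 5.65 (SE 0.453, edgeR adjusted p = 0.000149). The few control counts set its size: it was 5.01 without control replicate 1 and 6.86 without control replicate 2. GBP2 shares exon sequence with GBP7.

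GBP3 had 28.3 and 28.2 CPM with METTL14 and 21.4 and 19 CPM in the controls (0.48, SE 0.122, adjusted p = 0.0126). It was called in all 4 libraries, and the call was lost without either overexpression library, at nearly the same log2 fold change (0.49 and 0.49). GBP1 had 4 and 11 counts with METTL14 and 2 and 4 counts in the controls, and the interval of its ratio (2.44, 0.894 to 7.67) includes no difference. Per kilobase of exon, GBP3 stayed the most abundant of the 3, at 6.57 CPM per kilobase with METTL14 and 4.70 in the controls, while GBP2 reached 1.09 with METTL14 and 0.0205 in the controls. The family's sequences are similar, so reads may be divided unevenly between its members.

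Among the classical targets, the IFIT and IFITM families were lower in full. The IFIT genes lie in a cluster on chromosome 10 and encode proteins that bind viral RNA lacking host cap marks. IFIT1 had 24.2 and 25.1 CPM with METTL14 and 50 and 69 CPM in the controls (-1.27, SE 0.165, adjusted p = 0.000719). IFIT2 had 7.09 and 7.31 CPM with METTL14 and 11.3 and 16.9 CPM in the controls (-0.97, SE 0.219, adjusted p = 0.00763). The overexpression libraries lie close together and below both controls, which differ from each other. IFIT5 (-0.82, SE 0.162) and IFIT3 (-0.65, SE 0.147) were lower too, and IFIT3 was not called without METTL14 overexpression replicate 2 (adjusted p = 0.0898).

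IFITM proteins sit in membranes and block virus entry. IFITM2 had 35.2 and 33.7 CPM with METTL14 and 98.5 and 82.1 CPM in the controls, 2.62-fold lower (-1.39, SE 0.122, adjusted p = 0.000187). IFITM3 had 71.1 and 74.8 CPM with METTL14 and 139.9 and 123.6 CPM in the controls (-0.85, SE 0.106, adjusted p = 0.000608). Each overexpression value is below each control value by far more than the gap within a group. IFITM1, the least abundant, had 2.57 and 2.17 CPM with METTL14 and 4.73 and 5.18 CPM in the controls (-1.06, SE 0.25), and was not called without METTL14 overexpression replicate 2 (adjusted p = 0.091). The 3 genes are close copies on chromosome 11, and IFITM1 shares 351 exon bases with IFITM2. Reads may be divided between them, so their single values are less certain and their common direction is not 3 separate results.

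The OAS family, whose enzymes make the 2′-5′ oligoadenylates that activate the nuclease RNase L, was split. OAS3 had 120.9 and 125.4 CPM with METTL14 and 225.2 and 192.9 CPM in the controls (-0.76, SE 0.111, adjusted p = 0.00116), and OAS2 had 3.7 and 4 CPM with METTL14 and 10.8 and 9.65 CPM in the controls (-1.41, SE 0.191, adjusted p = 0.000849). OAS1 had 37.3 and 34.7 CPM with METTL14 and 35.8 and 35.8 CPM in the controls, and its libraries overlap (0.01, SE 0.109, adjusted p = 0.956). OASL, which lacks the synthetase activity and aids RNA sensing, had 67.0 and 64.0 CPM with METTL14 and 31.0 and 35.5 CPM in the controls, 1.97-fold higher (0.98, SE 0.116, adjusted p = 0.000494). OAS1, OAS3 and OAS2 are neighbours on chromosome 12 between 112906777 and 113011723, and OASL lies apart at 121019111 to 121039242. The ratio of OAS3 to OAS1 counts within a library was 3.24 and 3.61 with METTL14 and 6.29 and 5.39 in the controls, and that of OAS2 to OAS1 was 0.0992 and 0.115 with METTL14 and 0.302 and 0.269 in the controls. Neighbouring genes thus changed unequally within each library.

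ISG15, a ubiquitin-like protein that is attached to other proteins, and the enzymes around it did not move as a unit. ISG15 had 102.0 and 101.5 CPM with METTL14 and 236.8 and 249.5 CPM in the controls, 2.39-fold lower (-1.26, SE 0.096, adjusted p = 0.00013), and per kilobase it was the most abundant of the 48 genes in both groups (108.1 and 258.4 CPM per kilobase). USP18, which removes ISG15 from proteins and restrains the type I receptor, had 31.0 and 30.4 CPM with METTL14 and 37.1 and 32.6 CPM in the controls (-0.19, SE 0.118, adjusted p = 0.221). The ratio of ISG15 to USP18 counts was 3.29 and 3.34 with METTL14 and 6.38 and 7.64 in the controls. HERC6 had 11.4 and 11 CPM with METTL14 and 23.7 and 21.6 CPM in the controls (-1.02, SE 0.136, adjusted p = 0.000798). HERC5, the ligase that attaches human ISG15, had 26 and 33 counts with METTL14 and 11 and 25 in the controls (0.67, SE 0.468, adjusted p = 0.259), too few for a firm value. Over the alternatives, the log2 fold change ran from 0.21 to 1.36 for HERC5 and from -0.28 to -0.09 for USP18. UBA7, the activating enzyme for ISG15, is outside the 48 genes and was higher (1.26, SE 0.194, adjusted p = 0.00149).

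PARP9 and DTX3L, whose proteins form a complex of an ADP-ribosyltransferase family member and a ubiquitin ligase, start head to head on chromosome 3. PARP9 had 19.2 and 18.1 CPM with METTL14 and 38.2 and 38.3 CPM in the controls (-1.04, SE 0.114, adjusted p = 0.000373). DTX3L had 55.5 and 51.4 CPM with METTL14 and 62.0 and 53.5 CPM in the controls (-0.11, SE 0.116, adjusted p = 0.449), and its libraries overlap. Over the alternatives its log2 fold change ran from -0.22 to 0.00. Their promoter windows hold the same match to the response element, at 122564332 to 122564341, which begins 6 bases before the DTX3L start and 41 bases before a PARP9 start. The ratio of PARP9 to DTX3L counts was 0.345 and 0.352 with METTL14 and 0.617 and 0.715 in the controls. Exons of both genes overlap by 217 bases on opposite strands, and whether the counting used strand is unknown.

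**Figure D4:**
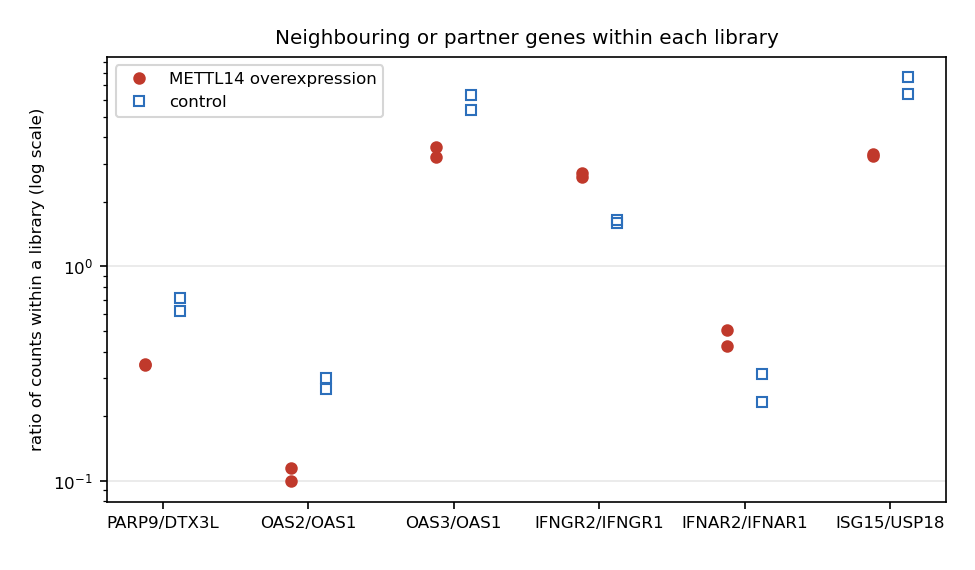
Ratio of the counts of 2 neighbouring or partner genes within each library, on a log axis; circles are METTL14 overexpression libraries and squares control libraries. The PARP9 to DTX3L, OAS2 to OAS1, OAS3 to OAS1 and ISG15 to USP18 ratios are lower with METTL14, and the receptor chain ratios higher, with no overlap in any of the 6 pairs, which were chosen after their values were seen.

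The RNA sensors differed among themselves. DDX58, which encodes RIG-I, had 12.3 and 15.5 CPM with METTL14 and 8.69 and 10.1 CPM in the controls (0.56, SE 0.179, adjusted p = 0.0312), a call lost without METTL14 overexpression replicate 2 (adjusted p = 0.328). IFIH1, which encodes MDA5, had 12.7 and 12.6 CPM with METTL14 and 12.5 and 12.6 CPM in the controls (0.01, SE 0.14, adjusted p = 0.946). DHX58, which encodes their regulator LGP2, had 6 and 7 counts with METTL14 and 14 and 20 counts in the controls. It was called as lower (-1.41, SE 0.504, adjusted p = 0.0474), but the call was lost in 8 of 14 alternatives, so it is weakly held. Of 9 tested genes upstream of interferon, outside the 48 genes, 2 were higher (22.2%) and 4 lower (44.4%), beside 27.0% and 28.1% of all tested genes. TICAM1 (0.64, SE 0.104) and TANK (0.72, SE 0.138) were higher, and the kinase IKBKE was lower (-0.99, SE 0.203).

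Of the 14 remaining effectors 12 were tested, of which 5 were lower (41.7%) and 1 was higher (8.33%). The 50% called stand beside 55.1% of all tested genes, of which 28.1% were lower and 27.0% higher. CXCL10, a chemokine that attracts T cells, had 12 and 13 counts with METTL14 and 47 and 48 counts in the controls, the largest fall among the tested members (log2 fold change -1.95, SE 0.36, adjusted p = 0.00328). IFI6, a small membrane protein with antiviral activity, had 43.5 and 39.4 CPM with METTL14 and 77.4 and 64.6 CPM in the controls (-0.78, SE 0.126, adjusted p = 0.00186). IFI27 had 33.6 and 32.2 CPM with METTL14 and 45.5 and 52.4 CPM in the controls (-0.57, SE 0.119, adjusted p = 0.00533). For these 3 the groups do not overlap. BST2, which tethers budding virus, had 21 and 28 counts with METTL14 and 40 and 61 in the controls (-1.08, adjusted p = 0.0393), and its call was lost with DESeq2 (0.0969), with library totals (0.0566) and without any library other than control replicate 1. CMPK2, a mitochondrial nucleotide kinase, had 3.29 and 5.19 CPM with METTL14 and 7.07 and 7.34 CPM in the controls (-0.76, adjusted p = 0.0374), a call lost with DESeq2 (0.058), with library totals (0.0585) and without METTL14 overexpression replicate 1 (0.339).

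ISG20, an RNA exonuclease, went the other way, with 16.0 and 16.8 CPM with METTL14 and 5.72 and 6.67 CPM in the controls, 2.65-fold higher (1.41, SE 0.161, adjusted p = 0.000441). EIF2AK2, which encodes the kinase PKR, was the most counted of the uncalled effectors, with 104.1 and 114.6 CPM with METTL14 and 117.0 and 127.6 CPM in the controls (-0.16, SE 0.105, adjusted p = 0.225). ZC3HAV1, the zinc finger antiviral protein, had 53.9 and 62.9 CPM with METTL14 and 78.8 and 68.6 CPM in the controls (-0.34, SE 0.123, adjusted p = 0.0508), just outside the threshold. It passed the edgeR test with no filter (adjusted p = 0.0451) and with replicate number in the model (0.0119). MX1 (0.22), IFI35 (0.03), SP100 (-0.05) and IFI44 (-0.20) had overlapping libraries and did not pass the test, and the sign of the first 3 turned without 1 or another library. MX1 was at 0.54 without control replicate 2, and EIF2AK2 at -0.22 without control replicate 1. XAF1 had 1 and 2 counts with METTL14 and 4 and 13 in the controls (ratio 0.172, interval 0.0323 to 0.595). IFI44L had no count with METTL14 and 1 and 8 counts in the controls, and the exact 95% interval of the ratio of summed counts reaches up to 0.494. Control replicate 2 carries most of the counts of both genes.

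Summed over all 34 classical targets, the level was 957.1 and 969.3 CPM with METTL14 and 1461 and 1440 CPM in the controls. The 11 signalling genes summed to 676.8 and 678.9 CPM with METTL14 and 574.0 and 527.4 CPM in the controls, and the 3 GBP genes to 35.8 and 35.0 CPM with METTL14 and 21.5 and 19.4 CPM in the controls. For each sum the 2 overexpression libraries lie closer together than the 2 controls do. A sum can hide opposite shifts between the controls, where OAS3 had 225.2 and 192.9 CPM and IFIT1 50 and 69 CPM. A further list of 34 interferon-stimulated genes, of which 26 were tested, had 5 higher (19.2%) and 9 lower (34.6%), not far from the 27.0% and 28.1% of all tested genes. LAP3 (-1.21, SE 0.0972) and TRIM14 (-1.11, SE 0.126) were lower, and UBA7, given above, was higher. Asked for a change beyond 1.5-fold, the test kept 14 of the 29 called members: 6 that were higher and 8 that were lower. Beside these 6 and 8 of 45 tested members, it called 1416 genes higher and 1357 lower of all 12700 tested.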

How the data were processed

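Poly(A) RNA libraries of both groups were sequenced on an Illumina instrument, per the labels' protocols. For each of the 4 libraries the authors deposited expected counts per gene, not normalized (10.8 to 11.6% of values are not whole). The submitters' processing notes name fastp, Bowtie2, HISAT2, StringTie and RSEM, and hg18 as the build. However, 20171 of 20323 gene identifiers are in GENCODE 29 on GRCh38, so the build behind the counts is unclear, and GENCODE served only for position, exon length and shared exons. How the counting treated strand is not stated. Rows without a symbol held at most 0.0366% of counts.

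Expected counts were rounded to whole numbers. edgeR 4.0.16 under R 4.3.3 was run with its filterByExpr step at a minimum of 10 counts, TMM scaling and a robust quasi-likelihood fit of the 4 libraries. The SE of a log2 fold change is its size over the root of F. The common biological coefficient of variation was 10.8%. CPM are counts scaled to library size after TMM. The series' design text describes independent repeats, but nothing ties a library to a culture. Each p-value sets a difference against the spread between these libraries, shared over genes, and that spread may be technical. Alternatives were DESeq2 1.42.0, its size factors in edgeR, library totals, no filter, 5 CPM in 2 libraries, no robust step, limma-voom (limma 3.58.1), replicate number in the model, glmTreat for a 1.5-fold change, summed rows of a symbol, each library left out, and, added after seeing the data, no mitochondrial genes. Intervals of count ratios are exact at 95% and cover counting error only. Python 3.11.15 was used for the rest. Members, lists and the naming rule (every member, and in each further list up to 3 called genes of smallest p) were chosen with earlier results of these data known. PTPN6, IRF8, SOCS1 and SOCS3 and the gene pairs of the ratios were named after their values were seen. TMEM173 and MB21D1 were looked up under their newer symbols STING1 and CGAS. A gene that the naming rule takes is not reported here.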

Additional observations from a re-analysis of the deposited data

How the results depend on the processing

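Of the 29 called members 19 kept their call in each alternative that tested them, other than glmTreat, and none of the 29 changed direction. The alternatives refit these same libraries, so a called gene could hardly change direction, and the 19 have no share over all called genes beside them. Against a 1.5-fold change, glmTreat called 1416 genes higher and 1357 lower over all 12700 tested genes. It called 6 members higher and 8 lower, 3 signalling genes higher and 0 lower, 1 GBP gene higher and 8 classical targets lower. Signalling genes called lower numbered 0 with DESeq2 and with library totals. With replicate number as a block they numbered 2, and 11 members were higher and 20 lower; same-numbered replicates deviated together only weakly (correlation 0.044), so the numbers were not taken as pairs. The median log2 fold change moved to -0.14 over all members with library totals, and to -0.13 over all members and -0.59 over classical targets with the 5 CPM filter. Over GBP genes it was 3.07, from GBP2 and GBP3. With no filter it was 1.25, since GBP1, of few counts, then enters as the middle of 3 genes.

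Leaving out 1 library at a time gave 2307 to 4575 genes lower over all genes, 6 to 13 members higher, 3 to 6 signalling genes higher and 0 to 4 lower, 1 to 2 GBP genes higher and 2 to 5 classical targets higher. The medians ran from -0.29 to -0.11 over all members, 0.19 to 0.35 over signalling genes and -0.73 to -0.59 over classical targets. Over GBP genes the range was 0.86 to 3.12, and the low values are those where GBP1 passed the filter and was the middle gene. Over all alternatives GBP2 ran from 5.01 to 6.86 and GBP3 from 0.40 to 0.57. Among genes not called in all 4 libraries, the log2 fold change ran from -0.30 to 0.08 for IRF1, -0.04 to 0.06 for OAS1, -0.03 to 0.54 for MX1, -0.02 to 0.08 for IFI35, -0.11 to 0.03 for SP100 and -0.22 to 0.00 for DTX3L. IFI35 was at -0.01 without METTL14 overexpression replicate 1, and SP100 at 0.00 with library totals. The cause of these shifts in single genes was not tested. The 5 CPM filter gave no value for 6 tested members of low level. Low counts limit GBP1, GBP2, XAF1, IFI44L, DHX58, HERC5, CXCL10 and the interferon transcripts most.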
